A study of Mus musculus with 8 samples.

Results

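The genes described here encode the mouse Fc gamma receptors (Fcgr1, Fcgr2b, Fcgr3 and Fcgr4), the signalling adaptors Fcer1g and Tyrobp, and the receptors Trem1, Trem2 and Treml2. They were taken by name, as the probes whose gene name in the scanner files is one of these 9 symbols, which gave 10 of the 39429 probes on the array and 9 of the 31751 genes and transcripts named there. The cells were C10, an established mouse pre-B line of HAFTL origin that carries C/EBPα in an inducible form, and one line with each short hairpin RNA (shRNA) was sampled. The 4 groups, of 2 arrays each, were the line labelled Tet2KD, with an shRNA against Tet2, after 24 h of induction, the control shRNA line after 24 h, the line labelled Tet2KD before induction (0 h), and the control shRNA line at 0 h. All 4 groups grew with puromycin, and induction added IL-3 (10 ng/ml), M-CSF (10 ng/ml) and estradiol (100 nM) together, so the parts of these 3 agents cannot be told apart. The series calls the arrays of a group technical duplicates, and the labels name no separate cultures, so the spread behind each p-value may be technical.

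Fc gamma receptors bind the constant part of IgG and let macrophages take up antibody-coated particles. Fcgr1, Fcgr3 and Fcgr4 are activating receptors that need the Fc receptor gamma chain, the product of Fcer1g, for surface expression and signalling, whereas Fcgr2b carries an inhibitory motif in its own tail and is the Fc gamma receptor of B cells. Tyrobp, also known as DAP12, is the other small adaptor, and it pairs with Trem1, Trem2 and many further myeloid receptors. Both adaptors carry an immunoreceptor tyrosine-based activation motif (ITAM), which Src family kinases phosphorylate and which then recruits the kinase Syk.

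The label of the line was checked first on Tet2, which encodes an enzyme that oxidises methylated cytosine. On the probe with the higher mean level, its transcript was at 92.8% of control at 0 h (adjusted p = 0.53, 95% interval 78.1% to 110%) and at 100% at 24 h (adjusted p = 0.98, interval 84.5% to 119%). A second Tet2 probe, in a fit of all kept probes, was at 82.1% at 0 h (adjusted p = 0.23, interval 65.1% to 104%). At 24 h that probe was at 112% (adjusted p = 0.49, interval 88.4% to 141%). No lower Tet2 signal passed the test with either probe, though the intervals at 0 h allow a partly lower level. Every direction below between the lines is between lines as labelled. All 12 defining pre-B genes were well above background on all 8 arrays. Their summed scaled signal was 425 to 443 in the line labelled Tet2KD and 304 to 330 in the control line at 24 h, against 577 to 651 in the line labelled Tet2KD and 609 to 649 in the control line at 0 h. Of 9 macrophage-defining genes, 7 to 9 per array were well above background, and their summed signal at 24 h was 907 to 983 in the line labelled Tet2KD and 924 to 971 in the control line. Before induction it was 7.17 to 7.27 in the line labelled Tet2KD and 8.18 to 9.56 in the control line. In a bulk sample, fewer cells of a type and less RNA per cell cannot be told apart. Mast cells and natural killer (NK) cells also use these adaptors. Of 9 mast cell and basophil genes, 1 to 2 per array were well above background. Tpsb2 was so on all 8 arrays and Tpsab1 on 1 control array at 24 h, while the IgE receptor genes Fcer1a and Ms4a2 were not on any. Their summed signal was 0.135 to 0.190 in the line labelled Tet2KD and 0.162 to 0.264 in the control line at 24 h, against 0.115 to 0.146 in the line labelled Tet2KD and 0.148 to 0.157 in the control line at 0 h. Of 9 NK cell genes, 1 to 3 per array were well above background. Prf1 was so on all 8 arrays, and Klrb1c only on the 2 arrays of the line labelled Tet2KD at 24 h. The summed NK cell signal was 0.654 to 0.743 in the line labelled Tet2KD and 0.488 to 0.523 in the control line at 24 h, against 0.443 to 0.475 in the line labelled Tet2KD and 0.522 to 0.524 in the control line at 0 h, and the part of such cells in the results was not tested.

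Each probe is a run of 60 bases, and coordinates are those of the mm9 build in the scanner files. The Fcgr3 probe lies at chr1:172984129-172984188 and the Fcgr2b probe at chr1:172890988-172891047, both on the minus strand. The Fcgr4 probe lies between them on the plus strand, at chr1:172959738-172959797, and the Fcer1g probe follows at chr1:173159794-173159853 on the minus strand, so 4 of the 9 genes share a stretch of chromosome 1. The Fcgr1 probe is at chr3:96086839-96086898 on the minus strand. The 3 Trem genes lie together on chromosome 17, plus strand, with probes at chr17:48385849-48385908 for Trem1, chr17:48491537-48491596 for Trem2, and chr17:48451800-48451859 and chr17:48448517-48448757 for Treml2. The Tyrobp probe, at chr7:31200651-31202378 on the plus strand, spreads its 60 bases over 1728 bases of the genome, so it joins separate exons, and the second Treml2 probe spreads over 241. These sequences are shown for the receptor with a close relative and for the probes that join exons, in lower case because no part is marked.
Fcgr3 probe: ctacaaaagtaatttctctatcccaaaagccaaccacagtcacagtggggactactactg
Tyrobp probe: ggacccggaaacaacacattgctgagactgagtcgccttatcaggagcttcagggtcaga
Treml2 probe: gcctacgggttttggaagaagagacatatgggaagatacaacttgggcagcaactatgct
The longest run of bases shared by the Fcgr2b and Fcgr3 probes was 6. This compares the probes with each other only, and binding of the Fcgr3 probe to Fcgr2b transcripts was not tested. In the Trem1 probe, 39 of the 60 bases are 1 repeated triplet of G and T, and binding of other transcripts that hold such a repeat was not tested. Which exon or untranslated region each probe lies in was not analysed here.

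RefSeq promoter windows of the GRCm38.p6 build were matched for 7 of the 9 genes, and Tyrobp and Treml2 are named only. The 250 bases before the start were searched on both strands for 4 motifs, GAGGAAG (reverse CTTCCTC) for the macrophage factor PU.1, TTGCNNAA (TTNNGCAA) for C/EBP factors, TGANTCA for AP-1, and for interferon regulatory factors 2 copies of GAAA, or of TTTC on the reverse, with any 2 bases between them. Fcgr3 has 2 starts, so 8 windows were searched. For each gene with a match, 1 window is shown, for Fcgr3 that of the start further upstream, to show where the letters stand. Capitals mark the matches, none of which overlap, and each window is written 5′ to 3′ on the strand of its gene.
Fcgr1, chr3:96293970-96294219, minus strand: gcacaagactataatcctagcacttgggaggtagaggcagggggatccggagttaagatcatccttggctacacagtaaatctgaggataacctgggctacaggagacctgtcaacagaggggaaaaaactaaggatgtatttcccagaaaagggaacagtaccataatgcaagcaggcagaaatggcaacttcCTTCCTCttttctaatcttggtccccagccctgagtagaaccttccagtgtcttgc
Fcgr3, chr1:171059404-171059653, minus strand: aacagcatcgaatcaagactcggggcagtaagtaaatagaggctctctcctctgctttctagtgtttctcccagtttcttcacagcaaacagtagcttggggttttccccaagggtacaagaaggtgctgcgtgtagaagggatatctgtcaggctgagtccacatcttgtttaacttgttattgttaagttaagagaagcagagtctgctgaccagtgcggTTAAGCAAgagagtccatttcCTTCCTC
Fcgr4, chr1:171018676-171018925, plus strand: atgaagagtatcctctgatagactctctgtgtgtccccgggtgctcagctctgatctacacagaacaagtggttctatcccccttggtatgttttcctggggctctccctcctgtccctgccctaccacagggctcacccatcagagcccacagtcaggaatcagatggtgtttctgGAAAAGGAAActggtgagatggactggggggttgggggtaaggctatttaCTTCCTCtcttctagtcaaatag
Trem2, chr17:48346151-48346400, plus strand: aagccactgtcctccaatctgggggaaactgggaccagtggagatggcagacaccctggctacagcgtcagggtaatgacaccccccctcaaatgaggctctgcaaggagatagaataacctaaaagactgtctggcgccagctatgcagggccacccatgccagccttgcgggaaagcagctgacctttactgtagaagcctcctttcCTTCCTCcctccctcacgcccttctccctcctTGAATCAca
The PU.1 letters stood in the windows of 4 of the 7 genes, Fcgr1, Fcgr3, Fcgr4 and Trem2, and in 10.6% of all 32851 RefSeq windows of this length. In the Fcgr3 window shown they cover bases 7 to 1 before the start, and bases 16 to 10 before the other start, in Fcgr4 bases 23 to 17, in Trem2 bases 41 to 35 and in Fcgr1 bases 56 to 50. The C/EBP letters stood before Fcgr3 only among these 7 genes, at bases 28 to 21 before the start shown and 37 to 30 before the other, and in 9.56% of all windows. The interferon regulatory factor letters were found for Fcgr4 (2.98% of all windows) and the AP-1 letters for Trem2 (6.75%). The windows of Fcgr2b, Fcer1g and Trem1 held none of the 4 letter strings. A match describes letters in a window and shows no binding.

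Values are log2 of the processed signal minus log2 of the 75th percentile of the same array, so a value of 0 is the 75th percentile of that array and levels of different probes cannot be compared. The scanner software marks each spot that is well above background, and a probe was tested where both arrays of at least 1 group had that mark. This left 8 of the 9 genes, all except Trem2. Fcgr1 passed only through the 24 h arrays, so the count of higher genes on induction was partly fixed by that filter. A gene counts as called with limma's adjusted p below 0.05 over all 16151 genes tested and a change of 2-fold or more, and ± is the standard error of the fit with n = 2 arrays in a group. On induction, 7 of the 8 tested genes were called higher in the line labelled Tet2KD and 8 of 8 in the control line, and none lower. Among all genes, 16.7% were called higher and 15.4% lower in the line labelled Tet2KD, and 14.2% higher and 13.1% lower in the control line. The arrays at 24 h lay above those at 0 h for 8 of the 8 in both lines. Among all genes, the groups did not overlap, in either direction, for 83.8% in the line labelled Tet2KD and 78.6% in the control line. The median log2 change of all genes in the line labelled Tet2KD was 0.14, a shift that depended on the scaling.

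**Figure D1:**
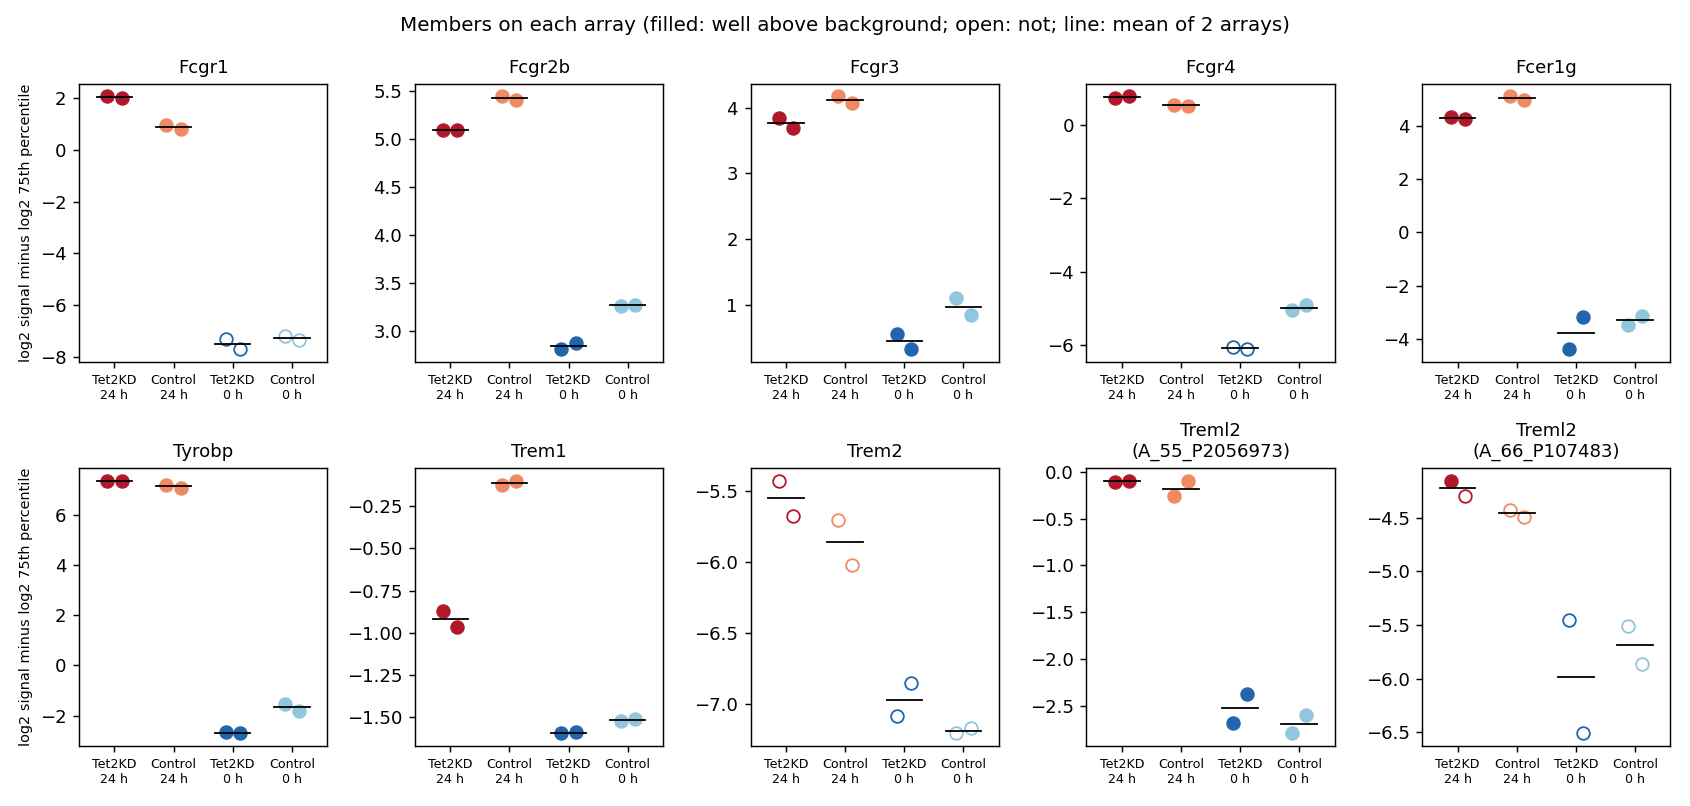
Log2 signal relative to the 75th percentile of each array for the 10 probes, 1 panel a probe with its own vertical scale. Points are arrays, lines are the means of 2 arrays, and open points are not well above background. Tyrobp, Fcer1g, Fcgr1 and Fcgr4 sit far lower at 0 h than at 24 h in both lines, and every Trem2 point is open.

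The high-affinity IgG receptor gene Fcgr1 was near the floor of the array before induction and readily detected after it. Its level was 2.07 and 2.00 on the arrays of the line labelled Tet2KD at 24 h, and 0.96 and 0.81 on those of the control line at 24 h. Before induction it was -7.30 and -7.70 in the line labelled Tet2KD and -7.21 and -7.37 in the control line, and none of these 4 arrays was well above background. The order of the levels was therefore the line labelled Tet2KD above control at 24 h, with both 0 h groups below and overlapping each other. Against the lowest signal measurable on the 0 h arrays, the induced level was at least 188-fold higher in the line labelled Tet2KD (adjusted p = 7e-07) and at least 73.9-fold higher in the control line (adjusted p = 1.1e-06). At 24 h it was 2.22-fold higher in the line labelled Tet2KD than in control (log2 difference 1.15 ± 0.15, adjusted p = 0.0096), and at 0 h no fold can be given.

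Fcgr4, the activating receptor that binds mouse IgG2a and IgG2b, was dim at 0 h and clearly measured at 24 h. It stood at 0.74 and 0.78 in the line labelled Tet2KD and at 0.55 and 0.52 in the control line at 24 h. At 0 h it was -6.04 and -6.10 in the line labelled Tet2KD, where neither array was well above background, and -5.05 and -4.90 in the control line, where both were. No 2 groups overlapped. The induced level was at least 77.4-fold higher in the line labelled Tet2KD (adjusted p = 5.2e-07), and it was 45.6-fold higher in the control line (log2 change 5.51 ± 0.07, adjusted p = 8.4e-07). At 0 h the line labelled Tet2KD was lower by at least 1.45-fold (fitted log2 difference -1.09 ± 0.07, adjusted p = 0.0017), a bound under 2-fold although the fitted value was called. That call was lost with normexp and quantile normalization, where the difference was -0.25. At 24 h the difference of 0.22 ± 0.07 did not pass the test (adjusted p = 0.093, 95% interval 0.05 to 0.40).

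Fcgr3, a low-affinity activating receptor, was measured well above background on all 8 arrays. Its values were 3.85 and 3.69 in the line labelled Tet2KD and 4.18 and 4.07 in the control line at 24 h. At 0 h they were 0.56 and 0.33 in the line labelled Tet2KD and 1.10 and 0.84 in the control line. The line labelled Tet2KD lay below control at both times without overlap. Induction raised Fcgr3 10.0-fold in the line labelled Tet2KD (log2 change 3.33 ± 0.13, adjusted p = 8.1e-06) and 8.89-fold in the control line (3.15 ± 0.13, adjusted p = 1.1e-05). Neither difference between the lines passed the test, with -0.53 ± 0.13 at 0 h (adjusted p = 0.053) and -0.36 ± 0.13 at 24 h (adjusted p = 0.13).

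Fcgr2b, the inhibitory receptor, was already well measured in uninduced cells, and 10 spots per array carry its probe. It stood at 5.10 on both arrays of the line labelled Tet2KD and at 5.45 and 5.41 in the control line at 24 h. In uninduced cells it was at 2.82 and 2.87 in the line labelled Tet2KD and at 3.27 and 3.28 in the control line. The groups did not overlap, and control lay above the line labelled Tet2KD at both times. Induction raised it 4.78-fold in the line labelled Tet2KD (2.26 ± 0.05, adjusted p = 1.8e-06) and 4.47-fold in the control line (2.16 ± 0.05, adjusted p = 2.6e-06), the smallest fitted changes among the 4 Fc gamma receptors in each line. The differences between the lines passed the test on p but were smaller than 2-fold, so they were not called. The line labelled Tet2KD was at 74.4% of control at 0 h (-0.43 ± 0.05, adjusted p = 0.0094) and at 79.6% at 24 h (-0.33 ± 0.05, adjusted p = 0.019).

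**Figure D2:**
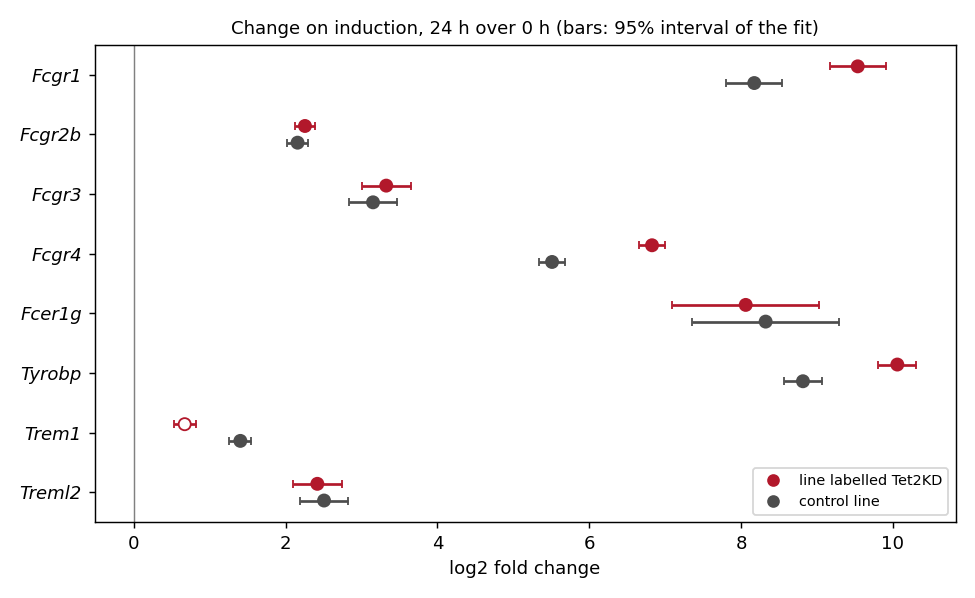
Fitted log2 change from 0 h to 24 h for the 8 tested genes in the line labelled Tet2KD (upper point of each pair) and the control line (lower point), with the 95% interval of the fit as bars, filled where called. For Fcgr1 in both lines and Fcgr4 in the line labelled Tet2KD the 0 h signal was not well above background, so the point is a fitted value and not a measured fold. Trem1 in the line labelled Tet2KD is the open point, at 0.67.

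Among the adaptors, Tyrobp had the largest measured fold of the 8 genes in both lines. Its values were 7.38 and 7.35 in the line labelled Tet2KD and 7.20 and 7.09 in the control line at 24 h. At 0 h they were -2.68 and -2.70 in the line labelled Tet2KD and -1.54 and -1.80 in the control line. The order at 24 h, with the line labelled Tet2KD above, was the opposite of that at 0 h, and no groups overlapped. Induction raised Tyrobp 1066-fold in the line labelled Tet2KD (10.06 ± 0.10, adjusted p = 5.2e-07) and 450-fold in the control line (8.82 ± 0.10, adjusted p = 7.9e-07). At 0 h the line labelled Tet2KD held 49.2% of the control level (-1.02 ± 0.10, adjusted p = 0.005), only just past 2-fold. That call was lost without the first control array at 0 h, at -0.89, and the difference was as small as -0.65 under another scaling. At 24 h the difference was 0.22 ± 0.10 (adjusted p = 0.20), and with each array's signal before scaling at 120220 and 146520 in the line labelled Tet2KD and 160721 and 170883 in the control line, its sign depended on the scaling (lowest value -0.02).

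Fcer1g, the gamma chain used by the activating Fc gamma receptors, rose strongly in both lines, with a wider error. It was at 4.33 and 4.26 in the line labelled Tet2KD and at 5.11 and 4.95 in the control line at 24 h. At 0 h it was at -4.37 and -3.16 in the line labelled Tet2KD and at -3.46 and -3.12 in the control line. The line labelled Tet2KD at 0 h spread by more than 1 log2 unit between duplicates and overlapped control, which makes the standard error of this gene the largest among the 8. The level was 267-fold higher on induction in the line labelled Tet2KD (8.06 ± 0.39, adjusted p = 1.7e-05) and 320-fold higher in the control line (8.32 ± 0.39, adjusted p = 1.8e-05). At 24 h both arrays of the line labelled Tet2KD lay below both control arrays, at 60.0% of control, but the difference of -0.74 ± 0.39 did not pass (adjusted p = 0.26, 95% interval -1.70 to 0.23).

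Of the TREM genes, Trem1, an activating receptor that amplifies inflammation and signals through Tyrobp, was at -0.87 and -0.97 in the line labelled Tet2KD and at -0.12 and -0.10 in the control line at 24 h. At 0 h it was at -1.59 on both arrays of the line labelled Tet2KD and at -1.52 and -1.51 in the control line. The 0 h groups were close together and control was above the line labelled Tet2KD at 24 h. In the line labelled Tet2KD the induced level was 1.59-fold the uninduced one (0.67 ± 0.06, adjusted p = 0.00016), under the minimum for a call, and in the control line it was 2.65-fold (1.41 ± 0.06, adjusted p = 1.2e-05). At 24 h the line labelled Tet2KD was at 57.1% of control (-0.81 ± 0.06, adjusted p = 0.0024), also under 2-fold, and at 0 h the difference was -0.08 ± 0.06 (adjusted p = 0.44).

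Treml2, a TREM-like receptor known from B cells, T cells and macrophages, rose in both lines on its brighter probe. That probe read -0.11 and -0.10 in the line labelled Tet2KD and -0.26 and -0.11 in the control line at 24 h. At 0 h it read -2.67 and -2.37 in the line labelled Tet2KD and -2.79 and -2.60 in the control line. The lines overlapped at both times. The rise was 5.35-fold in the line labelled Tet2KD (2.42 ± 0.13, adjusted p = 2.4e-05) and 5.69-fold in the control line (2.51 ± 0.13, adjusted p = 2.5e-05). Its second probe, which joins exons, was well above background on 1 of 8 arrays, the first of the line labelled Tet2KD at 24 h, and was not tested. That probe read -4.15 and -4.30 in the line labelled Tet2KD and -4.42 and -4.49 in the control line at 24 h, and between -6.51 and -5.46 on the 4 arrays at 0 h.

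Trem2, a lipid-sensing receptor of macrophages and microglia that signals through Tyrobp, was not well above background on any of the 8 arrays. Its probe read -5.42 and -5.67 in the line labelled Tet2KD and -5.70 and -6.02 in the control line at 24 h. In uninduced cells it read -7.08 and -6.85 in the line labelled Tet2KD and -7.20 and -7.16 in the control line. The 24 h arrays read higher than the 0 h arrays in both lines. With no filter on dim probes, limma called it higher in the line labelled Tet2KD (fitted log2 change 1.42 ± 0.17, adjusted p = 0.0022) and in the control line (1.32 ± 0.17, adjusted p = 0.0033), but with all signals below the mark no fold can be given.

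Between the lines as labelled, 2 of the 8 genes were called lower in the line labelled Tet2KD at 0 h, Tyrobp and Fcgr4, and none higher, where 1.39% of all genes were called lower and 0.328% higher. Neither call held with normexp and quantile normalization. The summed signal of erythroid and megakaryocyte genes was lower in the same arrays, with 4 to 6 of 9 per array well above background and sums of 6.76 to 6.78 in the line labelled Tet2KD and 15.5 to 17.6 in the control line at 0 h. At 24 h that sum was 6.62 to 6.77 in the line labelled Tet2KD and 9.61 to 10.4 in the control line. Of that list, the platelet chemokine gene Pf4 was called lower at 0 h (-1.32 ± 0.08, adjusted p = 0.0017), and Gp9, a platelet glycoprotein gene, was called for the difference between the inductions (1.23 ± 0.08, adjusted p = 0.0027). Their part in the Tyrobp and Fcgr4 differences was not tested. At 24 h 1 gene was called higher, Fcgr1, and none lower, where 1.04% of all genes were called higher and 0.997% lower. Arrays of the lines did not overlap for 5 of the 8 genes at 0 h and 7 of the 8 at 24 h, against 57.1% and 59.7% of all genes. At 24 h Fcgr1, Fcgr4 and Tyrobp read higher in the line labelled Tet2KD, and Fcgr2b, Fcgr3, Fcer1g and Trem1 read lower. The Fcgr1 call at 24 h was lost when any 1 of the 4 arrays at 24 h was left out, with adjusted p of at most 0.061.

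**Figure D3:**
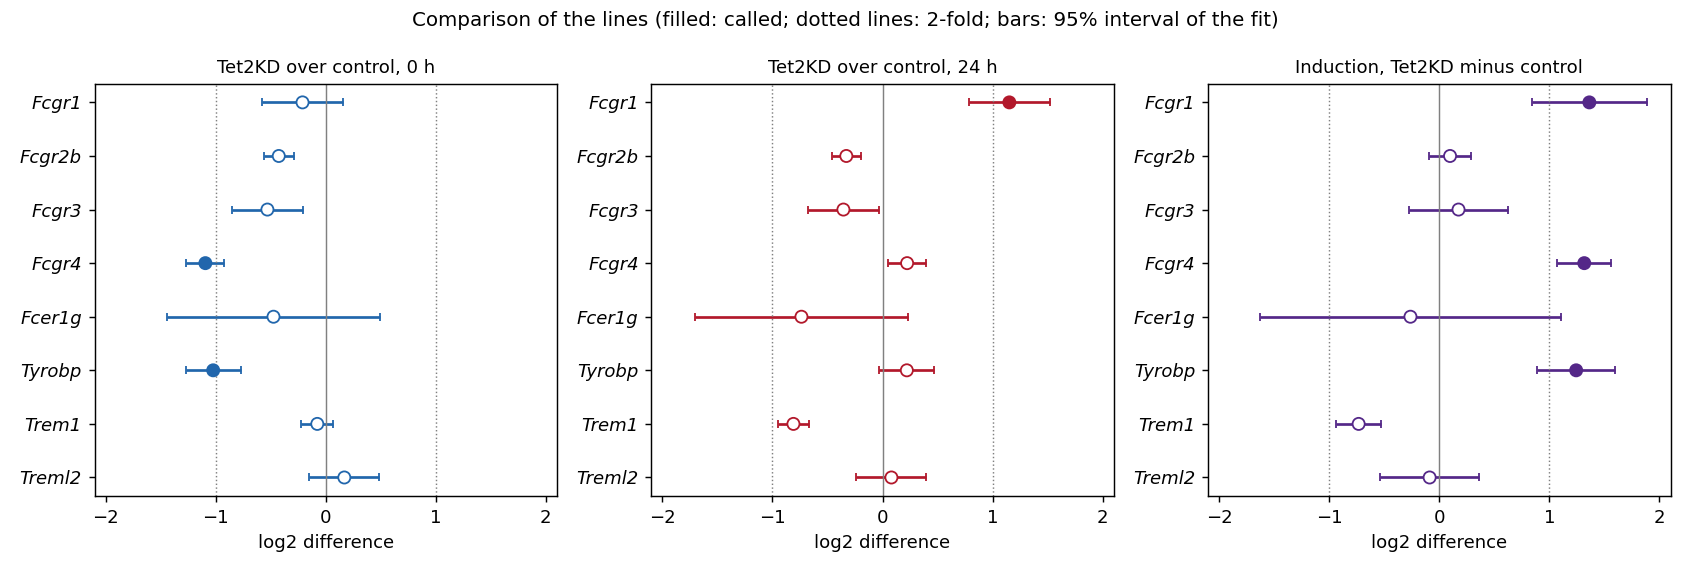
Fitted log2 difference between the line labelled Tet2KD and the control line at 0 h (left) and 24 h (middle), and the difference between their inductions (right), with 95% intervals of the fit. Filled points are called and dotted lines mark 2-fold. Tyrobp and Fcgr4 lie below control at 0 h, Fcgr1 lies above it at 24 h, and these 3 genes are filled on the right. For Fcgr1 and Fcgr4 the points on the right are fitted values, as they use 0 h signals that were not well above background.

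The difference between the inductions was tested directly, as the log2 change in the line labelled Tet2KD minus that in the control line. It uses the same arrays as the comparisons above, so it is no separate evidence. It was called for 3 of the 8 genes, all higher in the line labelled Tet2KD, where 2.36% of all genes were called in that direction and 1.46% in the other. The values were 1.36 ± 0.21 for Fcgr1 (adjusted p = 0.016), 1.32 ± 0.10 for Fcgr4 (adjusted p = 0.0036) and 1.24 ± 0.14 for Tyrobp (adjusted p = 0.0087). Within the first slide they were 1.20, 1.18 and 1.32, and within the second 1.53, 1.45 and 1.16, in that order of genes. For Fcgr1 this rested mostly on the arrays at 24 h, and for Fcgr4 and Tyrobp mostly on those at 0 h. Of the 3, only Tyrobp was well above background in every group, since the 0 h signal of Fcgr1 in both lines, and of Fcgr4 in the line labelled Tet2KD, was not. The differences for Fcgr1 and Fcgr4 are therefore fitted values and not measured ones, and their errors and adjusted p carry the same limit.

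For Trem1 the difference between the inductions was -0.73 ± 0.08 (adjusted p = 0.0083), below in the line labelled Tet2KD and under 2-fold, so it was not called. For Fcgr2b, Fcgr3, Fcer1g and Treml2 it did not pass the test, at 0.10 ± 0.08, 0.17 ± 0.18, -0.26 ± 0.55 and -0.09 ± 0.18. The 95% intervals were -0.09 to 0.29 for Fcgr2b, -0.28 to 0.63 for Fcgr3, -0.54 to 0.36 for Treml2 and -1.63 to 1.10 for Fcer1g. The calls of the 3 higher genes depended on the processing. Over 6 other scalings the difference was 1.03 to 1.39 for Fcgr1, 0.47 to 1.35 for Fcgr4 and 0.63 to 1.27 for Tyrobp.

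**Figure D4:**
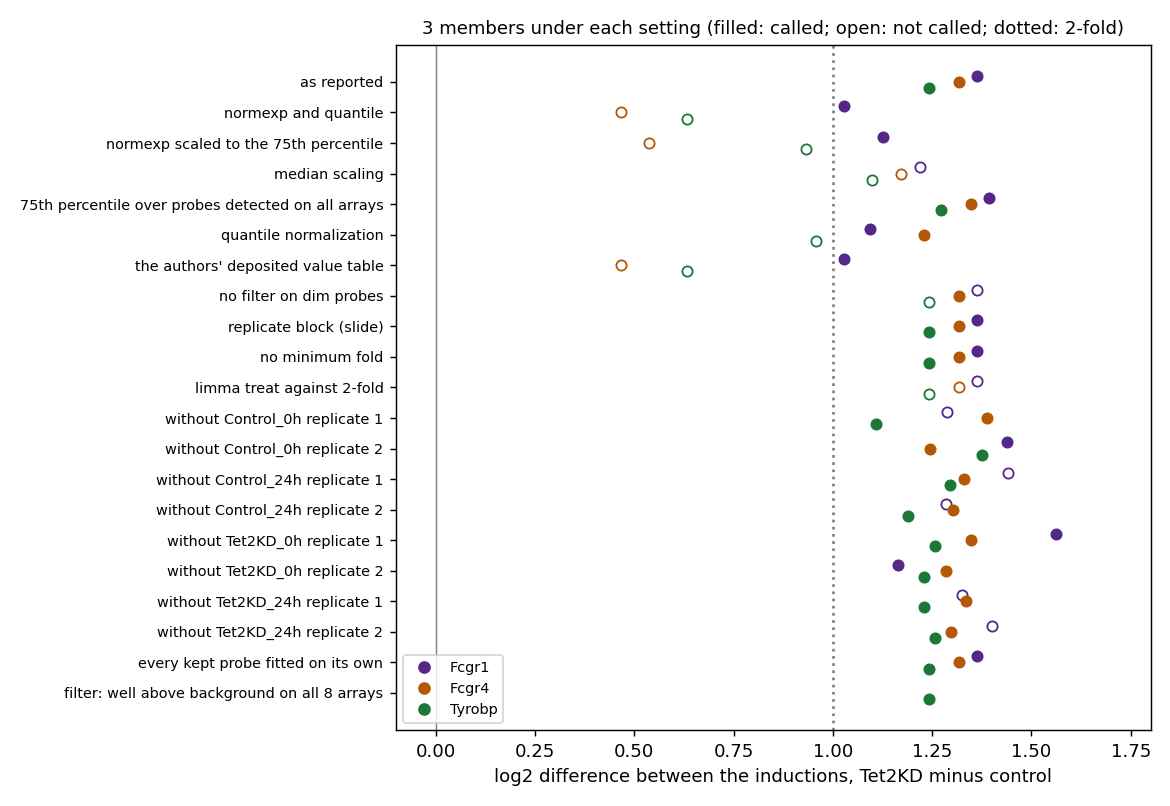
Log2 difference between the inductions, the line labelled Tet2KD minus control, for Fcgr1, Fcgr4 and Tyrobp under the reported setting (top) and each alternative. Filled points are called and the dotted line marks 2-fold. Under normexp with quantile normalization Fcgr4 is at 0.47 and Tyrobp at 0.63, while all points stay above 0, and Fcgr1 and Fcgr4 have no point where the filter asks for all 8 arrays.

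The genes that act on these adaptors moved in both directions. Of 37 kinases and linkers downstream of the ITAM, 30 were tested, and induction called 12 higher and 1 lower in the line labelled Tet2KD, and 11 higher and 3 lower in the control line. These counts stand beside 16.7% of all genes called higher and 15.4% lower in the line labelled Tet2KD, and 14.2% higher and 13.1% lower in the control line. The median log2 change of the 30 was 0.91 in the line labelled Tet2KD, or 0.87 with dim genes at their bound, beside 0.14 for all genes, and 0.73 in the control line, beside -0.00 for all genes. Lat2, a linker of B cells and myeloid cells, rose 42.7-fold in the line labelled Tet2KD and 40.6-fold in the control line. The adaptor Lcp2 rose 8.82-fold in the line labelled Tet2KD and 5.31-fold in the control line, and the PI3-kinase subunit Pik3r5 rose 8.06-fold in the line labelled Tet2KD and 8.88-fold in the control line. The Src family kinase Fgr was at least 1.66-fold higher in the line labelled Tet2KD and at least 2.42-fold higher in the control line. It was dim on all 0 h arrays and passed the filter only through 24 h arrays, so its direction was fixed by the filter. The phospholipase gene Plcg1 fell in both, to 29.2% of its 0 h level in the line labelled Tet2KD and to 23.3% in the control line, where the kinase Zap70 (-1.55) and the B cell linker Blnk (-1.40) also fell. Syk, named here after its values were seen because both adaptors recruit it, did not pass the test, at -0.20 ± 0.08 in either line (adjusted p = 0.066 in the line labelled Tet2KD and 0.076 in the control line).

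Between the lines at 0 h, Lcp2 was called lower in the line labelled Tet2KD (-1.13 ± 0.24, adjusted p = 0.038). The difference between the inductions was called for Zap70 (1.48 ± 0.09, adjusted p = 0.0025). Of 19 inhibitors of ITAM signalling, 18 were tested, with 9 higher and 2 lower on induction in the line labelled Tet2KD and 8 higher and 1 lower in the control line, and medians of 0.97 in the line labelled Tet2KD and 0.85 in the control line. The lower calls lie near or under the 15.4% and 13.1% of all genes called lower in these lines, and the higher ones stand beside 16.7% and 14.2%. The adaptor Dok2, which restrains kinase signalling, rose 9.19-fold in the line labelled Tet2KD and 7.29-fold in the control line, and Sla, a negative regulator of receptor signalling, rose 7.90-fold in the line labelled Tet2KD and 4.28-fold in the control line. The receptor phosphatase gene Ptprj rose 4.94-fold in the line labelled Tet2KD and 4.32-fold in the control line. The phosphatase gene Ptpn22 fell by 2.22 on the log2 scale in the line labelled Tet2KD and by 2.14 in the control line, and the lipid phosphatase gene Inppl1 fell by 1.03 in the line labelled Tet2KD. Sla2, which promotes loss of immune receptors from the surface, was lower in the line labelled Tet2KD at 0 h (-1.13 ± 0.08, adjusted p = 0.0026), and its induction was larger there by 1.78 ± 0.12 (adjusted p = 0.0026), at 7.83-fold in the line labelled Tet2KD and 2.28-fold in the control line.

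Among 23 other receptors and adaptors that pair with Fcer1g or Tyrobp or act beside them, 12 were tested, and 9 were called higher on induction in the line labelled Tet2KD and 8 in the control line, with none lower. Among all genes, 16.7% were called higher and 15.4% lower in the line labelled Tet2KD, and 14.2% higher and 13.1% lower in the control line. Of the 12, 7 (Cd300e, Cd300lb, Clec4d, Clec4e, Clec4n, Pilrb1 and Pilrb2) passed the filter only through 24 h arrays, so their direction was fixed by the filter and the count is a description only. Cd300ld rose 278-fold in the line labelled Tet2KD and 80.5-fold in the control line, and Cd300lb, an activating receptor that signals through Tyrobp, rose at least 44.1-fold in the line labelled Tet2KD and at least 46.8-fold in the control line. The C-type lectin Clec4d rose at least 23.6-fold in the line labelled Tet2KD and at least 142-fold in the control line. Clec4d and Clec4e, receptors for mycobacterial glycolipids that use Fcer1g, were the 2 genes called lower in the line labelled Tet2KD at 24 h, with log2 differences of -2.78 ± 0.29 and -1.82 ± 0.24 (adjusted p = 0.0057 and 0.011). In that comparison 0.997% of all genes were called lower. Clec4e was well above background on only 1 of the 2 arrays of the line labelled Tet2KD at 24 h. Neither Clec4d nor Clec4e was well above background on any 0 h array, so the difference between their inductions is a fitted value and not a measured one. It was called lower in the line labelled Tet2KD for both, at -2.23 ± 0.41 for Clec4d (adjusted p = 0.023) and -1.53 ± 0.34 for Clec4e (adjusted p = 0.039). The inductions of Cd300ld (1.79 ± 0.26, adjusted p = 0.014) and the adaptor Hcst (1.14 ± 0.10, adjusted p = 0.0055), both measured in all groups, were larger in the line labelled Tet2KD. At 0 h Cd300ld was lower in the line labelled Tet2KD, at 22.0% of control (-2.19 ± 0.18, adjusted p = 0.0034).

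**Figure D5:**
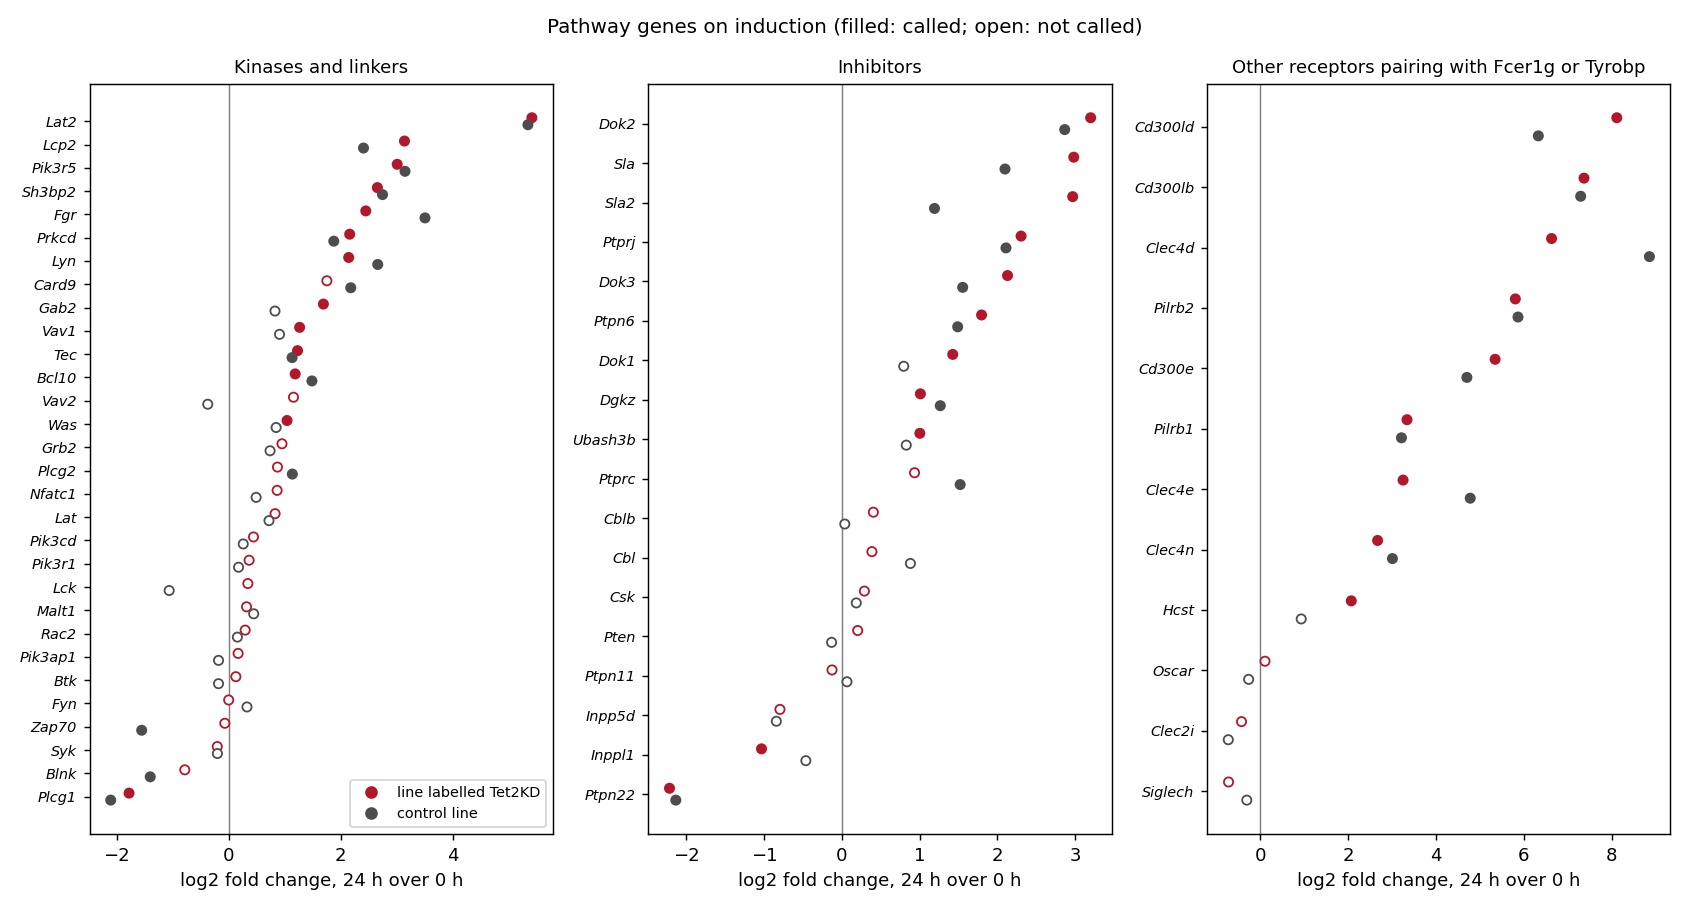
Fitted log2 change on induction in the line labelled Tet2KD and in the control line for the tested genes of 3 lists, kinases and linkers (left), inhibitors (middle) and other receptors pairing with the adaptors (right), filled where called. Values of genes dim at 0 h are fitted values. Clec4d lies further right in the control line, and Sla2 and Cd300ld further right in the line labelled Tet2KD.

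Of 12 other Fc receptor and Fc receptor-like genes, 6 were tested, and 2 were called higher and 1 lower on induction in each line. Among all genes 16.7% were called higher in the line labelled Tet2KD and 14.2% in the control line. The higher genes, Fcrlb and Fcer2a, passed the filter only through 24 h arrays. Their direction was thus favoured by the filter, and the count of higher genes is a description only. The 1 of 6 lower is near the share of all genes called lower (15.4% in the line labelled Tet2KD and 13.1% in the control line). Fcrlb, an intracellular Fc receptor-like gene, rose 7.28-fold in the line labelled Tet2KD and at least 13.9-fold in the control line. Neither control array at 0 h was well above background for Fcrlb, so the difference between its inductions is a fitted value and not a measured one. That difference was called lower in the line labelled Tet2KD, at -2.25 ± 0.47 (adjusted p = 0.033). At 0 h Fcrlb was called higher in the line labelled Tet2KD, at a bound of 1.07-fold. Fcer2a, the low-affinity IgE receptor of B cells, was called higher in both lines, at 2.40-fold in the line labelled Tet2KD and 2.15-fold in the control line, with 1 to 2 arrays of a group well above background. The polymeric immunoglobulin receptor gene Pigr fell by 2.02 on the log2 scale in the line labelled Tet2KD and by 1.64 in the control line. None of the 4 tested ITAM chains of the antigen receptors, out of 6, was called in any of the 5 comparisons. Cd79a, a chain of the pre-B receptor, was at 98.5% of its 0 h level in the line labelled Tet2KD (adjusted p = 0.84) and at 77.6% in the control line (adjusted p = 0.017).

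For each gene well above background on all 8 arrays, the 3 genes with the most similar pattern were found among 13610 such genes, by the root mean square difference of log2 values after centring each gene on its mean over the 8 arrays. Tyrobp was nearest to Cd14, the co-receptor for lipopolysaccharide (0.43), the lysozyme gene Lyz2 (0.46) and the chemokine gene Ccl6 (0.66). Fcer1g was nearest to Atf7 (0.49), Lyz2 (0.51) and the signalling inhibitor Socs3 (0.54). Closer neighbours were found for the genes with smaller changes, but this distance is not scaled and grows with the size of the change. Fcgr2b was nearest to Rapgef3 (0.06), Lrrk2 (0.07) and Pqlc3 (0.07), and Fcgr3 to Flot1 (0.09), Qsox1 (0.11) and Raet1c (0.12). Treml2 was nearest to Pla2g7 (0.09), an unnamed transcript (0.10) and Necap1 (0.11), and Trem1 to Atp11b (0.09), Pls3 (0.11) and Slc25a29 (0.11). The points are 8 arrays in 4 groups that share the induction, and nothing about shared function or control was read from the ranking.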

How the data were processed

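Agilent 1-colour arrays (design 026655) of 8 samples were used, 2 for each of 4 groups. Per the labels, 500 ng of total RNA was amplified and labelled with Cy3. Per the file headers, Feature Extraction 10.7.3.1 with protocol GE1_107_Sep09 and mm9 annotation made the deposited spot intensities, background-subtracted with no scaling between arrays. The deposited value table holds log2 values whose median was 6.84 on every array, and the submitters' processing notes name limma. Recomputing it with normexp (offset 50) and quantile normalization gave a correlation of 1 on each array. Each array held 43020 probe spots, of which 47.4% to 55.6% were well above background. Between 155 and 219 outlier spots were left out, no spot was saturated, and the 75th percentile was 722 to 1435 intensity units. With 2 arrays a group, their number limits precision.

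Log2 processed signal minus log2 of the array's 75th percentile was averaged over the spots of a probe. Of 39429 probes 20304 were kept, and the one with the highest mean level represents its gene (16151 genes). Names came from accessions for 11618 genes, symbols for 580, synonyms for 89 and the file for 3864. One model with 4 group means was fitted in R 4.3.3 with limma 3.58.1, with 4 residual and 1.51 prior degrees of freedom, and was tested on simulated data. Tests were 2-sided with Benjamini-Hochberg adjustment. The median standard error was 0.1 between groups and 0.142 for the difference between inductions. Where no array of a group was well above background, its value on each array was raised to the lowest signal well above background and the fold is a lower bound. Replicate numbers are slides, which each held all 4 groups, and deviations of same-numbered arrays correlated at 0.298 to 0.412 over genes, so a fit with this block was an alternative. All 9 genes with every probe were named, and from each pathway list the 3 genes with the largest called change in each direction per comparison. Where a group was dim, the difference between the inductions is a fitted value. Marker lists are given by counts and summed signal, with genes named where they bear on a comparison. Lists of T cell genes (4 to 5 of 8 per array well above background) and stromal genes (0 to 2 of 7) are not described further. Promoter sequences are from RefSeq. The genes, lists and tests were chosen with earlier results of these data known. One gene of the kinase list is not reported here.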

Additional observations from a re-analysis of the deposited data

Results flagged for a closer look

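The difference between the inductions, the line labelled Tet2KD minus the control line, was tested itself and passed for 3 of the genes. It was 1.24 on the log2 scale for Tyrobp, 1.32 for Fcgr4 and 1.36 for Fcgr1, all positive within both slides. Only the Tyrobp signal was well above background in all 4 groups, so the differences for Fcgr4 and Fcgr1 are fitted values and not measured ones. Without each array in turn, the difference stayed between 1.11 and 1.38 for Tyrobp, 1.25 and 1.39 for Fcgr4, and 1.16 and 1.56 for Fcgr1, with adjusted p by limma from 0.018 to 0.041, 0.016 to 0.026 and 0.019 to 0.063.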

How the results depend on the processing

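No result changed direction among called values under the 20 alternatives. In the single-gene comparisons, 808 results kept their side of the threshold, 38 lost a call and 6 gained one, and 18 within-slide values moved by more than the spread. Both inductions kept their counts of 7 and 8 under the 6 other scalings and without any 1 array. Of these scalings, the authors' deposited table and normexp with quantile normalization hold the same values, so they are not separate checks. The 0 h count of 2 was 0 with normexp and quantile normalization, with normexp scaled to the 75th percentile, with the authors' deposited table and with limma's test against 2-fold. It was 1 with median scaling, with quantile normalization and with the filter for all 8 arrays, and 1 to 3 with 1 array left out, where 1 came without the first control array at 0 h and 3 without the second array of the line labelled Tet2KD at 0 h. The 24 h count of 1 was 0 with median scaling, with no filter, with the filter for all 8 arrays and with the test against 2-fold, 3 with no minimum fold, and 0 to 1 with 1 array left out. The count of 3 for the difference between the inductions was 1 with either normexp setting, the authors' deposited table, no filter and the filter for all 8 arrays, 0 with median scaling and with the test against 2-fold, and 2 to 3 with 1 array left out. With the slide as replicate block the counts were 7, 8, 2, 1 and 3, so the pairing changed no call among these genes. The filter for all 8 arrays leaves Fcgr1 and Fcgr4 out of the fit, as their signal was dim at 0 h. Its lower counts were fixed by that and show no lost call. Why the other settings differ was not tested. Of the 0 h differences, Fcgr4 shrank to -0.25 and Tyrobp to -0.65 with normexp and quantile normalization.

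Over all genes, the reported counts higher and lower were 2700 and 2494 in the line labelled Tet2KD and 2286 and 2122 in the control line on induction, 53 and 225 at 0 h, 168 and 161 at 24 h, and 381 and 236 for the difference between the inductions. With median scaling they were 2172 and 3385 in the line labelled Tet2KD and 102 and 110 for the difference. With normexp and quantile normalization they were 10 and 84 at 0 h, 88 and 75 at 24 h, and 179 and 110 for the difference, and with normexp scaled to the 75th percentile 6 and 93, 90 and 64, and 209 and 73. The median change on induction in the line labelled Tet2KD, 0.14, was 0.20 with normexp scaled to the 75th percentile, 0.01 with quantile normalization and -0.11 with median scaling. Duplicate arrays of 1 line each give no error between cultures, and signals below background limit Fcgr1, Fcgr4 and Trem2 at 0 h.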
